A study of Mus musculus with 4 samples.

Results

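The barcodes described here are droplets of a thymic single-nucleus RNA library that carried no cell label from the authors and had under 20% of their unique molecular identifiers (UMIs) from mitochondrial genes. There were 929 of them among 22600 barcodes of that library (4.11%) and among 27643 barcodes of the 2 RNA matrices of the series. They are called low-mitochondrial barcodes below. They were chosen by their mitochondrial share and missing label, as every barcode of the thymic matrix that was missing from the authors' list of labelled thymic nuclei and whose share of UMIs from genes with the prefix "mt-" was below that threshold. The mitochondrial share therefore chose them and is given only as a description.

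The study set adipocyte nuclei of the thymus beside those of epigonadal white fat in WT, naïve mice. The thymic library used here came from 6 pooled thymi of 4-month-old males, prepared as nuclei from the floating layer after digestion of capsules cleaned of surrounding fat, and the labels give its cell type as adipocyte. The epigonadal library, also of 4-month-old males, is a separate library of another tissue. Where its unlabelled barcodes are set beside the thymic ones, tissue and library cannot be told apart. A joint RNA and chromatin library from 16 pooled thymi of 6-month-old females was not used here. All sets of thymic barcodes compared below lie in the 1 library, so no difference has a replicate check, no test was made, and the 95% intervals cover counting error only.

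The thymus is the organ in which T cells are made. Precursors first lack the surface coreceptors CD4 and CD8 (double negative cells), then carry both (double positive cells) while the recombinase of Rag1 and Rag2 rearranges their T cell receptor genes, and after selection keep one coreceptor and leave for the periphery. Around them lie epithelial cells, fibroblasts, vessels, dendritic cells, B cells and, with age, a growing amount of fat.

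Low-mitochondrial barcodes held 1380890 UMIs, 13.7% of the library, of which 1209931 came from nuclear-encoded genes. A barcode had a median of 1285 UMIs (232 to 13563) and 681 detected genes, and its mitochondrial share ran from 2.38% to 19.97% with a median of 14.2%. The 365 labelled thymic nuclei had a median of 1479 UMIs and a share from 3.06% to 19.97%, so the labelled nuclei lie in the same mitochondrial window. The 21306 unlabelled barcodes at or over the threshold had a median of 303 UMIs, 94 of them nuclear-encoded, and a median share of 70.2%. Between the 2 RNA libraries 147 barcode sequences were shared. Of the low-mitochondrial barcodes 7 had a sequence that also occurs in the epigonadal matrix, and for 6 of these it belongs to a labelled epigonadal nucleus. Without those 6 the count was 923. All levels below are UMIs of a gene or list per 1000000 nuclear-encoded UMIs of the summed set (CPM). In such sums fewer cells of a type and less RNA per cell cannot be told apart.

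The 5 thymocyte markers by which these barcodes had been proposed were all present. Satb1, a chromatin organiser of developing T cells, had 7381 UMIs in the low-mitochondrial barcodes (6100 CPM), 85 in the labelled nuclei (159 CPM) and 11552 in the unlabelled high-mitochondrial barcodes (3405 CPM). Themis, a signalling adaptor needed for positive selection, had 4871 UMIs (4026 CPM), 35 (65.4 CPM) and 6604 (1946 CPM) in the same order. Bcl11b, the transcription factor that fixes T lineage commitment, had 1942 (1605 CPM), 13 (24.3 CPM) and 3236 (954 CPM). These 3 genes stood highest in the low-mitochondrial barcodes and lowest in the labelled nuclei. Rag1, the recombinase subunit, had 396 UMIs (327 CPM), 13 (24.3 CPM) and 1235 (364 CPM). Cd8b1, the CD8 beta chain, had 244 (202 CPM), 6 (11.2 CPM) and 589 (174 CPM). For Rag1 and Cd8b1 the intervals of the log2 ratio to the high-mitochondrial barcodes touched 0, at -0.32 to 0.01 and 0.00 to 0.43.

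Promoters of 2 of these genes are shown, because they held core letters of known thymocyte factors, while the windows looked at for Dntt, Themis and Cd8a held none of them. They are the 250 bases before the RefSeq transcript start in GRCm38.p6, written 5′ to 3′ on the gene's strand, the minus strand for both: chr2:101649533-101649782 for Rag1 and chr12:108003415-108003664 for Bcl11b. Capitals mark exact matches, on either strand, to CAGCTG (an E-box), TGTGGT (a RUNX core), CTTTGA (a TCF/LEF core) or CCGGAA (an ETS core).
Rag1: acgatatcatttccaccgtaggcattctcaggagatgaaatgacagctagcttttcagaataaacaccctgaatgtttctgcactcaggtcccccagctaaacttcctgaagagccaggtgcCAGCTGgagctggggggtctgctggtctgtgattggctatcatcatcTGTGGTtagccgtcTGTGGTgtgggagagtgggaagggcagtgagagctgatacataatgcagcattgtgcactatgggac
Bcl11b: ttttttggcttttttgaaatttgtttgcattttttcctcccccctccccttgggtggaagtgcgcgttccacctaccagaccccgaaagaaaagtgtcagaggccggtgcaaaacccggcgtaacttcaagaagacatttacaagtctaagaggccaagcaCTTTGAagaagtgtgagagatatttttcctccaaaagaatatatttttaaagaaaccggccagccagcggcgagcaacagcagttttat
In Rag1 the E-box begins 128 bases and the RUNX letters 81 and 67 bases before the start, and in Bcl11b the TCF/LEF letters begin 89 bases before it. Of the 33 T lineage and double positive marker genes 23 had an entry, with 44 windows in all. CAGCTG was in 9 of these 44 windows and in 13% of all 32851 windows, TGTGGT in 6 and 14.0%, CTTTGA in 7 and 13.8%, and CCGGAA in 2 and 12.0%. A match of letters is a description and no binding was measured.

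Against the labelled nuclei, which lie in the same mitochondrial window, the low-mitochondrial barcodes were set apart by T lineage RNA. The 20 T lineage markers summed to 24382 CPM (24104 to 24661) in the low-mitochondrial barcodes, 1380 CPM (1282 to 1483) in the labelled nuclei and 1766 CPM in the unlabelled epigonadal barcodes of the same mitochondrial window. The log2 ratio of the sums over the labelled nuclei was 4.14 (4.04 to 4.25). The list holds Themis, Bcl11b and Satb1, by which the barcodes had been proposed and which make up 48.1% of its UMIs in them. The other 17 markers summed to 12650 CPM against 1131 CPM, a log2 ratio of 3.48. Of the 20 markers 19 were higher past 2-fold and 0 lower, with a median log2 ratio of 5.12. Over all 8548 genes with at least 20 UMIs in both sets together, 20.4% were higher and 18% lower past 2-fold, with a median of 0.14. The exception was Ets1, a transcription factor that endothelial cells also use, at a log2 ratio of 0.74 (0.58 to 0.90) with 417 UMIs in the labelled nuclei, 56.5% of their T lineage UMIs. Without Ets1 the ratio of the sums was 5.27.

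Both transcription factors and signalling genes of T cells stood higher than in the labelled nuclei. Of the list of 23 T lineage transcription factors, 18 were higher and 1 lower past 2-fold, with a median of 2.80, beside the 20.4% and 18% of all genes given above. Lef1, a partner of Tcf7 in T cell development, had 1893 UMIs against 7 and a log2 ratio of 6.80. Tox, which is needed for CD4 lineage cells, had 2823 against 12 (6.64). Prkcq, a kinase below the T cell receptor, had 835 against 3 (6.72, interval 5.39 to 9.22), and Skap1, an adaptor for integrin activation, had 3239 against 16 (6.44). Each of these was near its floor in the labelled nuclei. Of the list of 22 genes of the receptor complex and its proximal kinases, 21 were higher and 0 lower past 2-fold, with a median of 4.47. Plcg1, a phospholipase used by many cell types, was the lowest of that list at -0.45 (-0.91 to 0.03).

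The sum of the double positive markers was also highest in the low-mitochondrial barcodes. They summed to 5109 CPM there, 3280 CPM in the unlabelled high-mitochondrial barcodes and 1075 CPM in the labelled nuclei. The unlabelled epigonadal barcodes of the same window had 518 CPM. The sums rest unevenly on the markers, and Arpp21 alone gave 1857 of the 6181 UMIs in the low-mitochondrial barcodes. Over the high-mitochondrial barcodes the median log2 ratio of the 13 markers was only 0.13, and not every single marker was higher, as given below. The log2 ratio of the sums over the labelled nuclei was 2.25 (2.13 to 2.37). There 12 markers had at least 20 UMIs in both sets together. Of these, 12 were higher past 2-fold, with a median of 3.62, beside 20.4% of all genes. Arpp21, an RNA-binding protein abundant in double positive cells, had 1857 UMIs against 9 (6.43). Cd4, the coreceptor for class II, had 250 against 2 (5.47, interval 3.92 to 8.84), and Dntt, the polymerase that adds bases at receptor joints, had 273 against 8 (3.83). Tcf12, an E protein made in many tissues, was at 1.15. Cd1d1, the lipid-presenting molecule, had 18 UMIs against 3 and a ratio of 1.22, with an interval of -0.37 to 3.81 that includes 0.

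The 10 largest ratios over the labelled nuclei began with genes of leukocytes. Ptprc, which encodes the leukocyte antigen CD45, had 3237 UMIs in 779 of the 929 barcodes against 1 UMI in the labelled nuclei, a log2 ratio of 9.90 (8.0 to 15.79). Il7r, the receptor chain that keeps naive T cells and precursors alive, had 376 against 0 and was at least 55.4-fold higher by the floor of 3 counts. Scml4, Stat4, Ms4a4b, Atp8b4, Emb, Dpp4 and Chrna9 also had 0 UMIs in the labelled nuclei and were at least 49.7-fold, 39.1-fold, 37.6-fold, 37.0-fold, 34.6-fold, 31.1-fold and 30.1-fold higher. Ripor2, a regulator of leukocyte polarity and migration, had 745 against 1 (7.78). Of these genes Chrna9 stood apart from the epigonadal library, where the unlabelled barcodes of the same window had 4 UMIs against 1724 for Ptprc.

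Genes of vessels were among the lowest against the labelled nuclei. Ccdc85a had 191 UMIs (158 CPM) against 1644 (3073 CPM), a log2 ratio of -4.28, and Dll4, the endothelial and stromal Notch ligand, had 5 against 50 (-4.38). The 12 blood endothelial markers summed to 1330 CPM against 14451 CPM (log2 ratio -3.44), and Flt1, a VEGF receptor, was at -4.00 (-4.24 to -3.78). The adipocyte markers were 12 of 12 lower past 2-fold with a median of -2.01, beside 18% of all genes and a median of 0.14. All labels are Ad types of the authors (Ad Ia to Ad IIc), and the low-mitochondrial barcodes are those left without a label. Ratios over the labelled nuclei, higher or lower, therefore carry the authors' selection and are a description only.

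**Figure D1:**
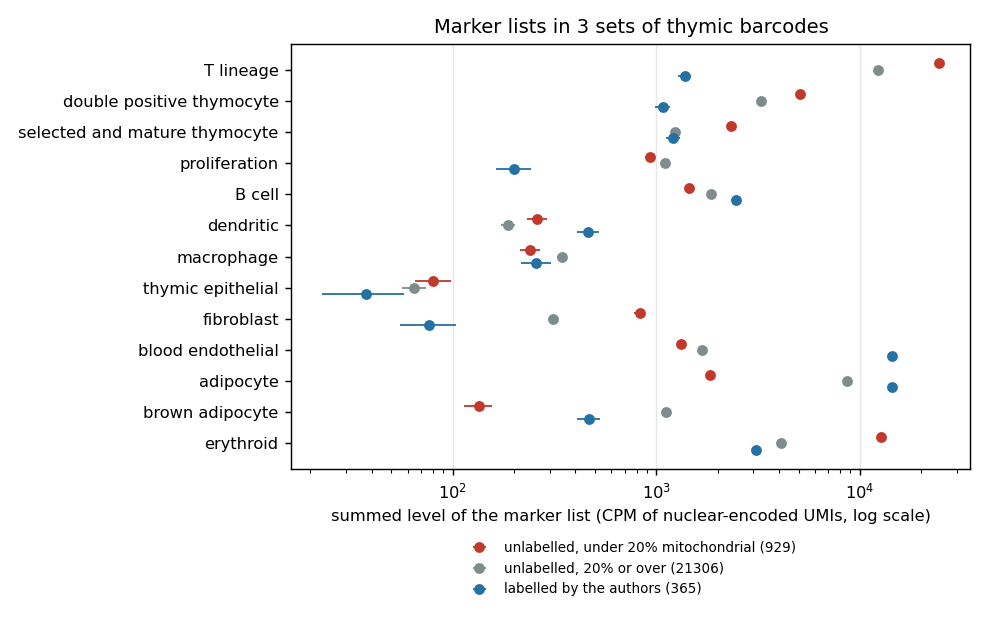
Summed level of 13 marker lists (CPM of nuclear-encoded UMIs, log scale) in the unlabelled low-mitochondrial barcodes (red), the unlabelled high-mitochondrial barcodes (grey) and the labelled nuclei (blue), with 95% Poisson intervals for counting error. The low-mitochondrial barcodes stand highest for T lineage markers, at 24382 CPM, and are the lowest of the 3 sets for adipocyte markers, at 1841 CPM.

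Against the unlabelled high-mitochondrial barcodes the T lineage RNA was about doubled in share, and this difference was uneven between genes. The 20 T lineage markers summed to 12265 CPM (12148 to 12384) in the high-mitochondrial barcodes, and the log2 ratio of the sums was 0.99 (0.97 to 1.01). Of the 20 markers 9 were higher past 2-fold and 0 lower, with a median of 0.80, beside 7.59% higher and 11.5% lower of 11292 genes and a median of 0.15. Among the 9 were Tox (1.69), Lef1 (1.48), Cd5 (1.46), Txk (1.43), Cd247 (1.36), Skap1 (1.35), Prkcq (1.29) and Themis (1.05). Cd3d, Cd3g, Lat, Thy1 and Cd2, which encode chains of the receptor complex, its adaptor and surface proteins of T cells, were at -0.19, 0.01, 0.07, 0.15 and 0.18, with intervals that include 0. For the 17 markers without Themis, Bcl11b and Satb1 the log2 ratio was 1.09.

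The authors' labelled nuclei had been taken out below the threshold, and no barcode above it was labelled, so the 2 sets of this comparison were not chosen alike. With the 365 labelled nuclei counted together with the low-mitochondrial barcodes, the T lineage sum over the high-mitochondrial barcodes was at 0.50 (0.48 to 0.52), and 1 of 20 markers was higher past 2-fold, beside 9.55% of 11569 genes. The double positive sum, which was at 0.64 (0.59 to 0.68) for the low-mitochondrial barcodes alone, was then at 0.24. The fibroblast sum was at 0.95, the adipocyte sum at -0.59 in place of -2.23, and the blood endothelial sum changed sign from -0.33 to 1.68. Of 213 ratios of single genes, 58 changed sign, 8 of them past 2-fold without the labelled nuclei. All ratios over the high-mitochondrial barcodes given here carry this difference in selection.

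The scale mattered in this comparison. TMM scaling, median-of-ratios scaling and totals without Malat1, Gm42418 and AY036118 moved the median of all genes by -0.18, -0.17 and -0.20, and the T lineage sum then stood at 0.81, 0.83 and 0.79. Log2 ratios between 0 and about 0.2 are therefore not a direction, and the median of the double positive markers, 0.13, is one of them, although 10 of the 13 were above 0 and their sum was at 0.64. Higher calls were 39.8% of all calls as reported, 23.4%, 24.4% and 22% under those scalings, 62.0% with a pseudocount of 5 UMIs 24.8% against the high-mitochondrial barcodes with at least 500 UMIs and 52.4% with the labelled nuclei counted in. Over the labelled nuclei the split was 53.1% and moved to 42.4% with the pseudocount of 5.

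The T lineage genes past 2-fold over the high-mitochondrial barcodes were longer by median than the rest, with exceptions. The 9 markers past 2-fold span 20.9 to 305 kb in the annotation, with a median of 114 kb, and the other 11 span 5.2 to 122 kb, with a median of 12.0 kb. Tox, the highest, spans 305 kb, and Cd3d, the lowest, spans 5.28 kb. Cd5, at 1.46, spans 20.9 kb, whereas Ets1 (122 kb), Satb1 (97.1 kb) and Bcl11b (93.7 kb) were at 0.63, 0.84 and 0.75. Among the 11017 of 11292 tested genes with a span, the median log2 ratio was -0.38 in genes up to 12.5 kb, 0.09 from there to 28.0 kb, 0.31 from there to 66.7 kb and 0.46 in longer ones. Over the labelled nuclei the medians ran from -0.09 in genes up to 15.4 kb to 0.13, 0.26 and 0.22 in the 3 longer classes. The double positive markers are mostly short, with a median span of 16.5 kb, and their 3 longest, Tcf12 (268 kb), Arpp21 (171 kb) and Dntt (30.2 kb), were at 0.92, 0.87 and 0.13 over the high-mitochondrial barcodes. The part of gene span in the T lineage difference was not tested.

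Rag1 and Rag2 were near or below their level in the high-mitochondrial barcodes, and the direction for Rag1 depended on the setting. Rag2, the partner of Rag1, had 39 UMIs (32.2 CPM) against 157 (46.3 CPM), a log2 ratio of -0.51, and Rag1 was at -0.15. Rag1 was at 0.37 against the high-mitochondrial barcodes with at least 500 UMIs, at 0.16 for a threshold of 10% and at -0.63 with the labelled nuclei counted in. Of the 13 double positive markers 0 were higher and 1, Cd1d1, was lower past 2-fold, at -1.38 (-2.22 to -0.70). Cd4 was at 0.73 (0.50 to 0.96) and Cd8a at 0.11 (-0.17 to 0.39). Of 18 genes of selected and mature thymocytes 4 were higher past 2-fold and 0 lower, with a median of 0.58, beside 7.59% higher, 11.5% lower and a median of 0.15 over all genes. Runx3, the factor of CD8 cells, was at 1.62 and Bcl2, which protects mature cells from death, at 1.61, whereas S1pr1, the receptor by which cells leave the thymus, was at -0.41 (-0.78 to -0.07), and at 1.07 with the labelled nuclei counted in.

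**Figure D2:**
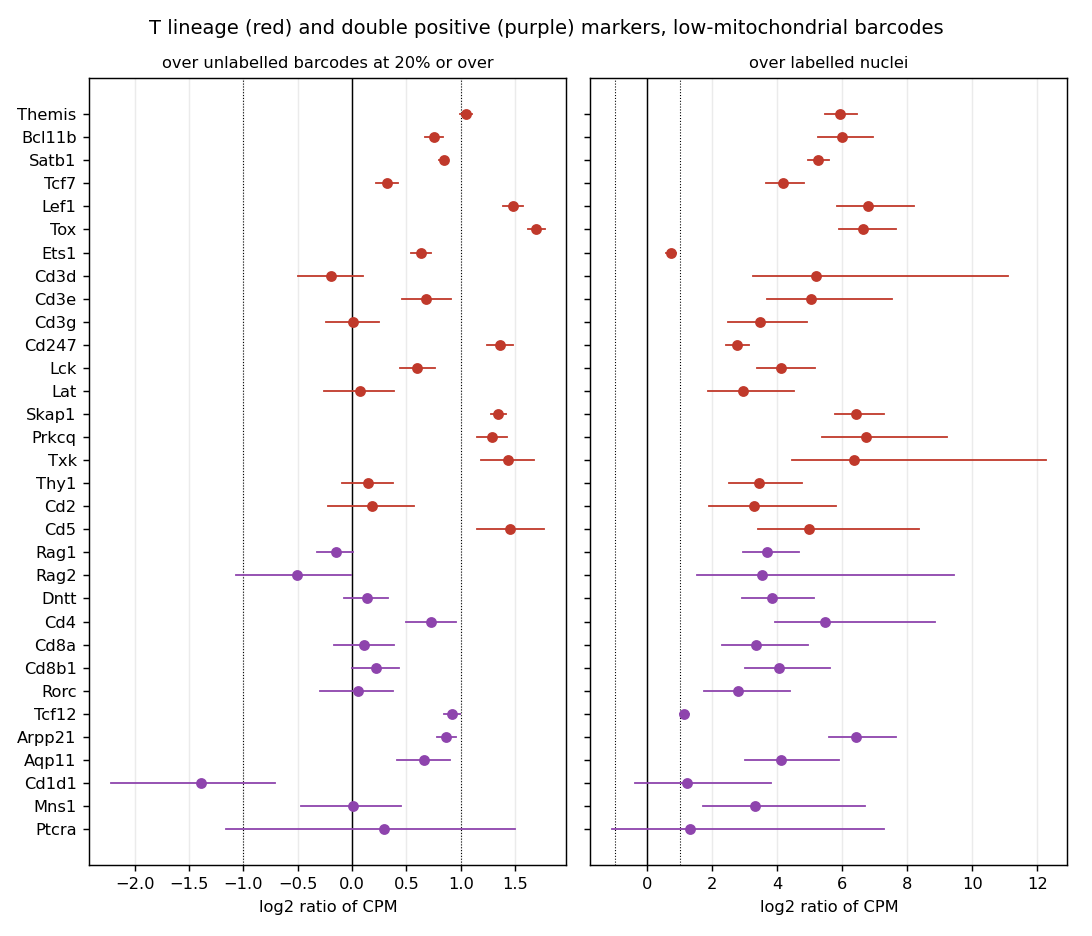
Log2 ratio of CPM for 19 of the 20 T lineage markers (red) and 13 double positive markers (purple), low-mitochondrial barcodes over unlabelled high-mitochondrial barcodes (left) and over labelled nuclei (right), with 95% intervals for counting error cut at 13 and dotted lines at 2-fold. On the left 8 red and 0 purple markers lie above 2-fold and 1 purple marker, Cd1d1, lies below, and on the right 18 red ones lie above.

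The level of T lineage RNA differed along the mitochondrial share. Among unlabelled barcodes it was 19182 CPM under 5%, 26803 CPM from 5% to 10%, 24904 CPM from 10% to 15% and 22319 CPM from 15% to 20%, then 15762 CPM from 20% to 25%, 12225 CPM from 50% to 60% and 7394 CPM over 80%. Labelled nuclei, which hold little T lineage RNA, were left out below the threshold, and none lie above it. Over all barcodes from 15% to 20%, labelled ones included, T lineage RNA was 15673 CPM, close to the 15762 CPM of the next step. Adipocyte RNA of unlabelled barcodes was 2456 CPM from 15% to 20% and 6094 CPM from 20% to 25%, and over all barcodes from 15% to 20% it was 6382 CPM. In single percent steps, the 84 unlabelled barcodes from 19% to 20% had 21559 CPM of T lineage RNA and 2699 CPM of adipocyte RNA, all 135 barcodes of that step had 13536 and 7476 CPM, and the 121 barcodes from 20% to 21% had 15277 and 5161 CPM. One step further out, all 100 barcodes from 18% to 19% had 15025 and 6397 CPM and the 141 from 21% to 22% had 15111 and 6886 CPM. With the labelled nuclei counted in, T lineage RNA was thus lower in the step just below the threshold than in the step just above it, and level one step further out, while adipocyte RNA was higher just below and not higher one step further out.

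**Figure D3:**
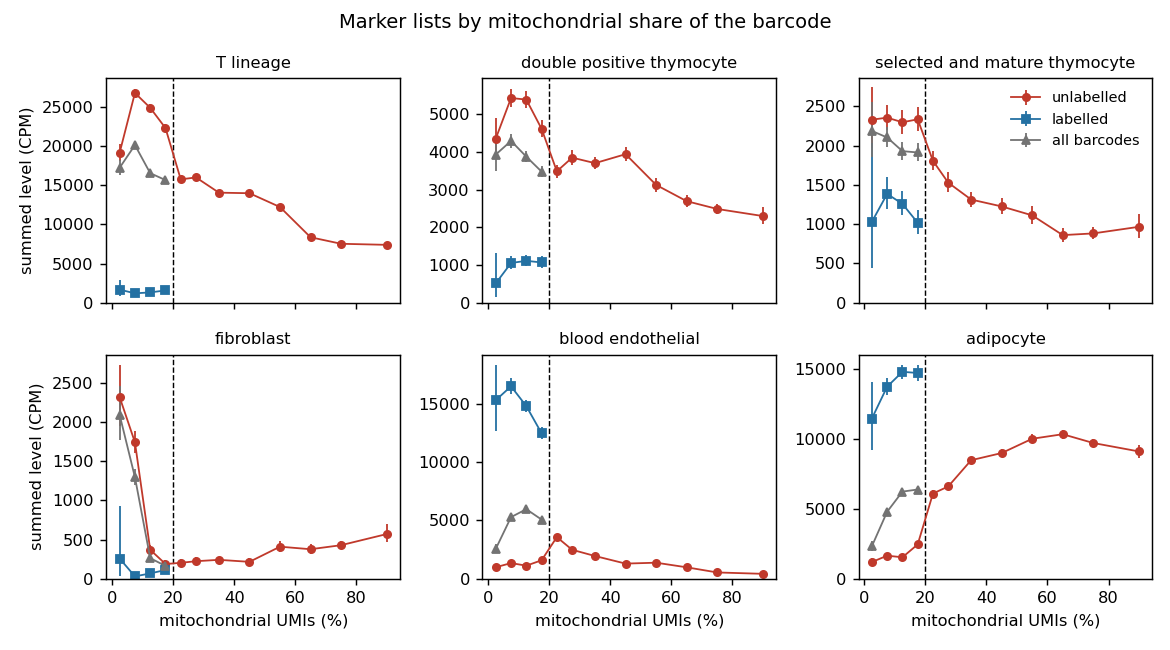
Summed level of 6 marker lists (CPM) against the mitochondrial share of the barcode (%), for unlabelled barcodes (red), labelled nuclei (blue) and, under the threshold, both together (grey), with 95% Poisson intervals and the threshold of 20% dashed. T lineage RNA is 22319 CPM in the last red point under the threshold, 15673 CPM in the grey point beside it and 15762 CPM in the first point over it.

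Other cell types were represented unevenly in the summed profile. Fibroblast markers were 832 CPM in the low-mitochondrial barcodes, 311 CPM in the high-mitochondrial and 76.6 CPM in the labelled ones, and 9 of 12 were higher past 2-fold over the high-mitochondrial barcodes, with a median of 1.59, beside 7.59% of all genes. Pdgfra, the receptor that marks mesenchymal cells, had 46 UMIs against 21 (log2 ratio 2.60), and the collagen gene Col1a1 had 94 against 56 (2.23). B cell markers were 1455, 1850 and 2458 CPM. Ebf1, which fat and vessel cells also make, had 676 UMIs (559 CPM) in the low-mitochondrial barcodes and 1290 (2411 CPM) in the labelled nuclei, whereas Bank1, a B cell scaffold protein, had 352 (291 CPM) and 4 (7.48 CPM). Plasma cell transcripts were low: Jchain, which joins antibody units, had 8 UMIs against 341 in the high-mitochondrial barcodes (-3.84), and Igkc had 48 against 1026 (-2.92).

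Macrophage and epithelial RNA was scarce. Dendritic markers summed to 259 CPM, against 187 CPM in the high-mitochondrial barcodes (log2 ratio 0.47, 0.27 to 0.67) and 462 CPM in the labelled nuclei. The labelled sum came from few markers, since 8 of the 12 were at 0 there. Of the 5 with at least 20 UMIs in both sets together, 3 were higher and 1 lower past 2-fold than in the labelled nuclei. Their median log2 ratio was 3.53, beside 20.4% higher and 18% lower of all genes. The macrophage list summed to 240 CPM, of which F13a1, a clotting factor subunit, made up 208 UMIs, 118 of them in the cluster richest in Rag1 described below. C1qa, C1qb and Csf1r, which define tissue macrophages, had 6, 0 and 5 UMIs, and C1qa and C1qb had 164 and 60 in the high-mitochondrial barcodes. Thymic epithelial markers summed to 80.2 CPM, with 7 of 16 at 0. Foxn1, the master factor of thymic epithelium, had 0 UMIs, Krt8 0, Psmb11 1, Krt5 1 and Epcam 3. The 2 epithelial markers with more UMIs were Ccl25 (41) and Ly75 (45), and Ly75 is also an uptake receptor of dendritic cells. Of the 97 UMIs of the epithelial list, however, 9 lay in the dendritic-like cluster 11 described below, and 30, 13 and 15 in clusters 1, 2 and 4. The list stood at 64.8 CPM in the high-mitochondrial barcodes, and the log2 ratio of 0.31 had an interval that includes 0 (-0.05 to 0.66).

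Fat RNA was low in the sum, although 2 clusters described below (6 and 9) held 8711 and 10734 CPM of adipocyte markers. The 12 adipocyte markers summed to 1841 CPM against 8616 CPM in the high-mitochondrial barcodes and 14461 CPM in the labelled nuclei, with all 12 lower past 2-fold in both comparisons, beside 11.5% and 18% of all genes. Adipoq, the adipocyte hormone, had 14 UMIs against 444 in the high-mitochondrial barcodes (log2 ratio -3.45), and Cfd, a secreted adipocyte protease, had 138 against 3094 (-2.99). Fabp4, a lipid carrier of fat and capillary cells, had 1041 against 13234 (-2.18). The 10 brown adipocyte markers summed to 134 CPM against 1123 CPM (-3.07), and Ucp1, the uncoupling protein of brown fat, had 22 UMIs against 394 (-2.64). With the labelled nuclei counted in, 9 of the 12 adipocyte markers were lower past 2-fold, beside 8.67% of all genes, and Pparg, the adipocyte master regulator, was at 0.81. Adrb3, the adipocyte receptor for noradrenaline (4 against 189 UMIs), Agpat2, an enzyme of triglyceride synthesis (5 against 215), and Tshr, the thyrotropin receptor (7 against 247), were among the 10 lowest genes of the comparison.

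Malat1, a long noncoding RNA kept in the nucleus, was 21437 CPM in the low-mitochondrial, 21431 CPM in the high-mitochondrial and 20977 CPM in the labelled barcodes. The labelled value pools unlike types, with 58154 CPM in the nuclei labelled Ad Ia or Ad Ib and 14245 to 17429 CPM in those labelled Ad IIa, Ad IIb and Ad IIc. Neat1, the scaffold of nuclear paraspeckles, was 202, 236 and 454 CPM. Genes of dividing cells were present. The 21 mitosis genes had 1485 UMIs (1227 CPM) against 69 (129 CPM) in the labelled nuclei, where 7 were at 0, a log2 ratio of 3.25 (2.90 to 3.62), and Top2a, the topoisomerase of chromosome segregation, had 156 UMIs against 4 (3.94). Against the high-mitochondrial barcodes 8 of 20 S phase genes and 4 of 21 mitosis genes were lower past 2-fold and 0 higher, with medians of -0.86 and -0.43, beside 11.5% lower over all genes. Their sums were nearer to level, at -0.28 (-0.40 to -0.16) for S phase and -0.05 (-0.13 to 0.04) for mitosis genes. Most of these ratios rest on few UMIs, as in Mcm5, a replication helicase subunit, with 5 against 36.

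At the level of single barcodes T lineage RNA was widespread. At least 2 of the 20 markers were found in 808 of 929 low-mitochondrial barcodes, 87.0% (84.6 to 89.1), against 24.1% of the high-mitochondrial barcodes and 30.7% of the labelled nuclei, at median depths of 1101, 94 and 1273 nuclear-encoded UMIs. After each barcode was thinned to 200 nuclear-encoded UMIs, the shares were 73.7% (70.7 to 76.5) of 927 barcodes with 2 left out, 50.5% (49.0 to 52.0) of 4415 with 16891 left out, and 3.01% (1.51 to 5.33) of 365 with none left out. Thinned to 500 UMIs they were 85.6%, 67.1% and 8.64%, with 65, 20217 and 64 left out. In labelled Ad IIa nuclei, which carry endothelial RNA, the share was 37.7% unthinned and 0.87% thinned to 200 UMIs, and Ets1 gave 63.3% of their T lineage UMIs. Without Ets1 it was 10.4% unthinned in the Ad IIa nuclei and 84.7% in the low-mitochondrial barcodes, and thinned to 200 UMIs 0.87% and 71.6%. The 20 markers made up a median of 2.39% of the nuclear-encoded UMIs of a low-mitochondrial barcode, with quartiles of 1.02% and 3.85% and a highest value of 9.23%, and 65 barcodes had none. In the labelled nuclei the median was 0.13%.

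To see which cells were mixed in the sum, the 927 barcodes with at least 200 nuclear-encoded UMIs were clustered, giving 12 clusters. The genes clustered also define the clusters, so what follows is a description. Clusters 1, 2, 4, 5 and 10 each had over 20000 CPM of T lineage RNA, a limit set after seeing the values, and together held 585 barcodes (63.1%). The barcodes were clustered again under 4 other settings, which kept 552 of the 585 (at least 500 nuclear-encoded UMIs) or all 585. Between 98.6% and 100% of those kept fell in new clusters made up in majority of these barcodes. Between 1.17% and 6.43% of the other barcodes fell in such clusters too. The borders among the T lineage clusters moved, and cluster 5 shared as little as 0.17 (Jaccard index) with its best match.

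Cluster 2, with 201 barcodes, was double-positive-thymocyte-like. It held 312 of the 396 Rag1 UMIs, 191 of 273 Dntt and 1169 of 1857 Arpp21 UMIs, and all 13 double positive markers were detected, at 13898 CPM together. Cd4 was found in 97 of its barcodes, Cd8a or Cd8b1 in 121 and both coreceptors in 61, beside 39, 26 and 1 of the 201 barcodes of cluster 1, which was slightly deeper (median 1404 against 1282 UMIs). Rag1 or Rag2 was found in 146 barcodes of cluster 2 (72.6%) and 9 of cluster 1 (4.48%). Chrna9, a nicotinic receptor subunit, had 145 of its 204 UMIs in cluster 2, and Ccr9, the receptor for the thymic chemokine Ccl25, 182 of 386.

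Cluster 1 was T-lineage-like with genes of later thymocytes and mature T cells. Lef1 had 1016 of 1893 UMIs here, Bcl2 470 of 979, Il7r 138 of 376, and Itm2a, an activation gene of selected thymocytes, 58 of 77. Cd40lg, the ligand by which CD4 cells help B cells, had 33 UMIs in 23 barcodes, and Bach2, which restrains differentiation of naive T cells, had 754 in 168. All 18 markers of selected and mature thymocytes were detected, at 3946 CPM, against 1219 CPM in cluster 2 and 4665 CPM (4303 to 5048) in cluster 3 described below, where Bcl2 also stood higher (1934 against 1770 CPM). Cd69, an early sign of receptor signalling, had 37 of 70 UMIs here.

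Cluster 5 (57 barcodes) was T-lineage-like and was led by Ikzf2, which encodes the factor Helios of strongly signalled T cells, with 227 of 757 UMIs, then by Cd5, which tunes receptor signalling (47 of 178), and by Tox (656 of 2823). Foxp3, which defines regulatory T cells, had 1 UMI in all 929 barcodes, and in none of cluster 5. Cluster 4 (105 barcodes) was led by Il2ra, the interleukin 2 receptor of early precursors, with 44 of 63 UMIs in 15 barcodes, and by Cdk6. Notch1 (35 UMIs) came last of its 10 leading genes, behind Gria3, Uck2, Fkbp5, Hdac4, Pola1 and Desi1 among others. The cluster also held 420 of the Arpp21 UMIs and 1618 CPM of proliferation markers, against 11418 CPM in cluster 10. It was left unnamed, since Il2ra and its double positive RNA (9308 CPM) belong to different stages. At a resolution of 0.5 its best Jaccard index was 0.31. Cluster 10 (21 barcodes) held 65 of 86 Mki67 and 113 of 156 Top2a UMIs, 23836 CPM of T lineage RNA and Cd8a or Cd8b1 in 14 barcodes.

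Cluster 3 (126 barcodes) had natural killer receptors with less T lineage RNA (12250 CPM). Klrk1, an activating receptor, had 70 UMIs here and 4 in all other clustered barcodes, Klrc2 42 and 4, and Il18rap 39 and 4. Il2rb, a receptor chain for interleukins 2 and 15, had 47 of 56 UMIs here, Tbx21, the T-bet factor, 17 of 22, Klrb1c, the NK1.1 antigen, 27 of 32 and Il7r 186 of 376. Double positive RNA was 1297 CPM, and Cd4 was seen in 2 barcodes. Klrk1, Klrc2 and Il18rap are in none of the fixed lists, and Il2rb and Tbx21 are in that of regulatory and innate-like T cells. That list had 148 of its 1360 UMIs here (1123 CPM), and the natural killer list, which holds Klrb1c, 52 of 65 (394 CPM). Because its T lineage, natural killer and innate-like T genes point to different fixed lists, cluster 3 was left unnamed. It kept a Jaccard index of at least 0.83 under the 4 settings.

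**Figure D4:**
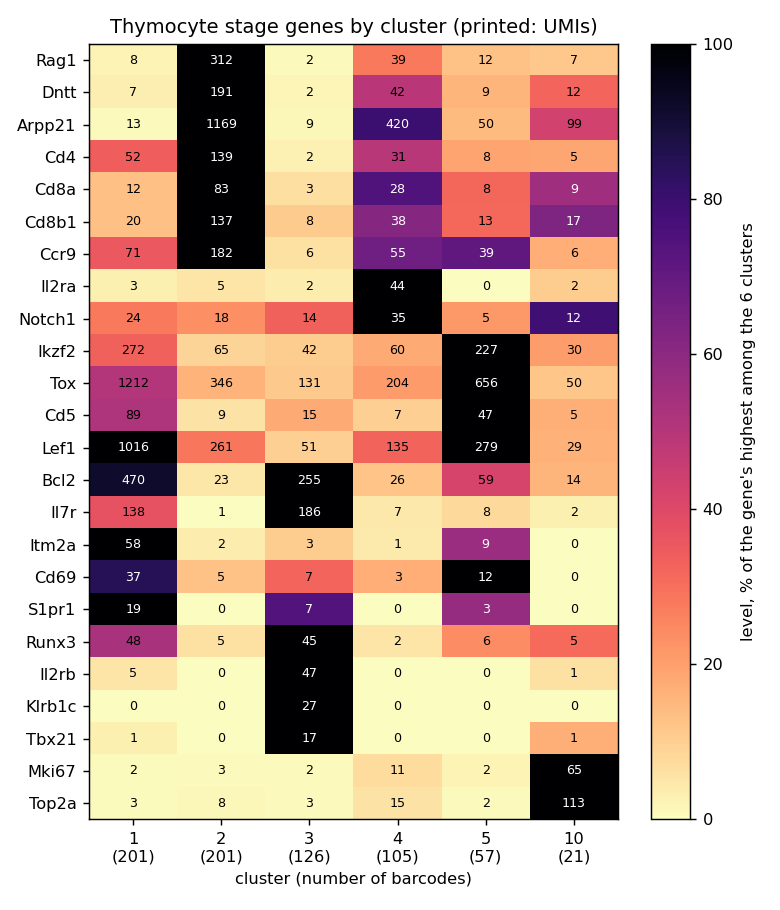
Level of 24 thymocyte stage and lineage genes in the 6 clusters with the most T lineage or killer receptor RNA, as percent of each gene's highest level among them (colour), with UMIs printed; genes were picked for display after their values were seen. Rag1 is darkest in cluster 2 (312 UMIs), Lef1 has 1016 UMIs in cluster 1 and Il2rb 47 in cluster 3.

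Most of the remaining clusters were stromal, vascular or of other blood lineages. Cluster 8 (38 barcodes) was fibroblast-like. It had all 12 fibroblast markers at 12034 CPM, 94.7% of the fibroblast UMIs of the clustered barcodes, and 933 CPM of T lineage RNA, with 22 barcodes at 0. It had a median of 1974.5 UMIs and a mitochondrial share of 9.36%, against 14.2% over all low-mitochondrial barcodes, and fibroblast RNA was 2314 CPM in barcodes under 5% and 188 CPM in those from 15% to 20%. Pi16, a marker of adventitial progenitors, had 36 UMIs here and 0 elsewhere, and C7, a complement gene, 57 and 0.

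These 38 barcodes carried most of the genes that stood highest over the high-mitochondrial barcodes. Ror1, a Wnt receptor kinase, had the largest ratio (2.92) and 79 of its 82 UMIs in cluster 8. Meg3, an imprinted noncoding RNA (2.75), had 65 of 68 there. Bicc1, Lama2, Gpc6, Sntg1 and Col1a1 had between 93.5% and 97.9% of their UMIs there, and for Col1a1 55 of 94 UMIs lay in 1 barcode. Csmd1 (2.36) had 62 of 114 UMIs in 2 barcodes of cluster 6, and Cacnb2 (2.11) had 55 of 71 in cluster 11. Hbb-bs (2.39) had 7543 of 7634 in cluster 12. For none of the 10 genes did a T lineage cluster hold the most UMIs.

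Hemoglobin RNA came almost wholly from 15 barcodes. Cluster 12 was erythroid-like, with hemoglobin at 48.3% to 94.1% of the nuclear-encoded UMIs of each barcode, and held 98.1% of the hemoglobin UMIs of the low-mitochondrial barcodes. With it, Hbb-bs was at 2.39 over the high-mitochondrial barcodes. The high-mitochondrial barcodes held 17 and the labelled nuclei 1 barcode with over 50% hemoglobin, beside 14 in the low-mitochondrial ones. Without such barcodes in both sets, Hbb-bs was at -2.65 over the high-mitochondrial barcodes and at 0.20 over the labelled nuclei (2.62 with them). T lineage RNA in cluster 12 was 232 CPM, and 11 of the 15 barcodes had none of the 20 markers.

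B and dendritic cells formed small clusters. Cluster 7 (55 barcodes) was B-cell-like, with all 12 B cell markers at 16612 CPM, Ms4a1 with 30 of 30 UMIs, Pax5 with 62 of 69, and Cr2, the complement receptor of mature B cells, with 59 against 3 elsewhere. T lineage RNA was 3205 CPM there, and 27 of the 55 barcodes had at least 2 T lineage markers. Cluster 11 (20 barcodes) was dendritic-like, with 10 dendritic markers detected at 4139 CPM. Flt3, the growth factor receptor of the lineage, had 18 of 19 UMIs here, Clec9a and Xcr1, receptors of cross-presenting cells, 16 of 16 and 12 of 12, and Siglech, of plasmacytoid cells, 21 of 21. Macrophage markers were 1594 CPM there, and at a coarser resolution of 0.5 the cluster merged with the B-cell-like barcodes.

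2 clusters combined fat or vessel genes with T lineage RNA. Cluster 6 (56 barcodes) was led by Ppara, a regulator of fat burning (48 of 58 UMIs), and Erbb4. Ghr, the growth hormone receptor, had 231 of 390 UMIs there. The cluster was left unnamed, since its adipocyte and T lineage genes point to different fixed lists. It also held 50 of the 94 UMIs of the Schwann and nerve marker list (869 CPM). Its adipocyte markers were 8711 CPM and its T lineage markers 17004 CPM, against 1704 CPM in the 84 labelled nuclei of the authors' types Ad Ia and Ad Ib. Of the 56 barcodes 32 had at least 2 markers of both lists, and T lineage RNA ran from 0 in 12 barcodes to 7.87% of nuclear-encoded UMIs. Its best Jaccard index was 0.37 with barcodes of at least 500 UMIs and 1.0 at a resolution of 0.5.

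Cluster 9 (32 barcodes) was endothelial-like, with 12604 CPM of blood endothelial RNA, 10734 CPM of adipocyte markers, mostly Fabp4 (733 UMIs) and Pparg (149), and a median of 2262 UMIs. T lineage RNA was 5549 CPM against 1315 CPM in the labelled Ad IIa nuclei, and 24 of the 32 barcodes had at least 2 markers of both the T lineage and the endothelial lists. Scrublet called 9 doublets among the 929 barcodes, all in cluster 9, and 2 among the labelled nuclei. It called 0 in cluster 6. Doublets were not removed. Without the 9 the T lineage log2 ratio was 1.0 over the high-mitochondrial barcodes, and without the 9 and the 2 labelled calls it was 4.15 over the labelled nuclei. Clusters 7, 8, 11 and 12, by comparison, had 3205, 933, 1106 and 232 CPM of T lineage RNA, the last from 4 UMIs. Whether barcodes with both kinds of RNA held 2 nuclei was not tested.

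**Figure D5:**
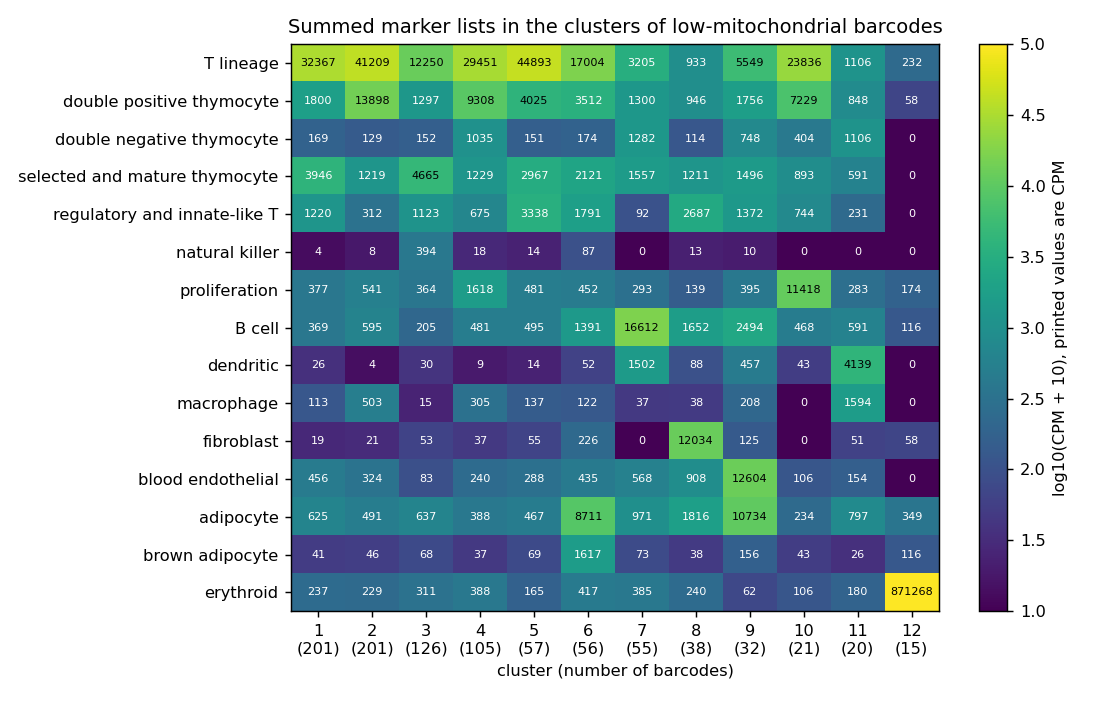
Summed level of 15 marker lists (printed, CPM; colour, log10 of CPM plus 10) in the 12 clusters of low-mitochondrial barcodes, with the number of barcodes under each cluster. T lineage RNA is above 20000 CPM in clusters 1, 2, 4, 5 and 10, and clusters 8, 7 and 12 stand out for fibroblast (12034 CPM), B cell (16612 CPM) and erythroid RNA (871268 CPM).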

How the data were processed

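The authors deposited UMI counts per gene and barcode for the thymic and epigonadal libraries, which per the file headers came from cellranger 7.2.0, and a table of labelled nuclei with the percent of mitochondrial UMIs of each. The submitters' processing notes name mm10, Cell Ranger ARC 2.0.2 and Seurat 5.1.0, with no role. For the annotation and for intron reads the settings were not given in the sources used here. Barcodes missing from the table under the thymic prefix were split at 20% mitochondrial UMIs (13 genes). Members, lists and tests were chosen with earlier results of these data known.

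Counts were summed per set and divided by nuclear-encoded UMIs. Log2 ratios used a pseudocount of 0.5 UMI and genes with at least 20 UMIs in both sets together, and past 2-fold means a log2 ratio beyond 1. Intervals of ratios used an exact binomial model of how the counts divide, levels have exact Poisson intervals and shares Clopper-Pearson intervals, all at 95% and for counting error only. A count of 0 was held at 3 counts for bounds. Clusters came from scanpy 1.11.5 (2000 variable genes, 20 components, 15 neighbours, Leiden resolution 1). TMM used edgeR 4.0.16. There were 25 marker classes and 12 gene lists, and the ratio and clustering code was tested on simulated data. The simulated clustering used a few clear groups at a resolution of 0.5, so it does not check the resolution of 1 or the small clusters described here. Named genes were the T lineage and double positive markers, the 2 highest and 2 lowest genes of every other list, in each direction the 10 genes of largest ratio whose higher set had 50 UMIs and 50 CPM or more (no mitochondrial, ribosomal protein or predicted genes), and the 5 leading genes of each cluster with at least 30 UMIs. Other genes named by cluster, and C1qa, Csf1r, Krt5, Krt8, Psmb11, Epcam, Foxn1, Foxp3 and Malat1, were chosen after their values were seen. Gene spans and promoters are from RefSeq GRCm38.p6. Alternatives covered scaling, pseudocount, gene minimum, mitochondrial threshold, depth and doublets. Some were added after seeing the data: leaving out the hemoglobin cluster, barcodes over 50% hemoglobin in both sets, Scrublet calls, the 6 shared barcodes, Ets1 or Themis, Bcl11b and Satb1, counting the labelled nuclei in, and high-mitochondrial barcodes with at least 500 UMIs. 1 T lineage marker counted in the list is not reported here by name or plotted. The labels of the 6-month library, its RNA and its fragments were not analysed here.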

Additional observations from a re-analysis of the deposited data

How the results depend on the processing

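No paired analysis was possible because every set of thymic barcodes came from 1 library, and the epigonadal barcodes came from 1 other. The number of low-mitochondrial barcodes was 218, 539 and 2343 at thresholds of 10%, 15% and 30%. The T lineage log2 ratio over the high-mitochondrial barcodes (0.99) was 0.81 with TMM, 0.83 with median-of-ratios scaling, 0.79 without Malat1, Gm42418 and AY036118, 1.07 at 10%, 0.84 for the 5 thymocyte markers, 1.09 without Themis, Bcl11b and Satb1, 1.01 without Ets1, 0.50 with the labelled nuclei counted in, 0.71 against high-mitochondrial barcodes with at least 500 UMIs and 1.39 with equal weight per barcode. Over the labelled nuclei (4.14) it was 5.43 for the 5 markers, 3.48 without Themis, Bcl11b and Satb1, 5.27 without Ets1 and 4.03 with equal weight. Genes higher past 2-fold over the high-mitochondrial barcodes (857) numbered 511 with TMM, 532 with median-of-ratios, 484 without those 3 genes, 2821 with no minimum, 547 with at least 50 UMIs and 296 against barcodes with at least 500 UMIs, and genes lower (1298) numbered 623 with a pseudocount of 5, 3469 with no minimum and 815 with at least 50 UMIs. Over the labelled nuclei the 1745 higher genes became 4059 and 1062 and the 1541 lower ones 4118 and 951 under those 2 minimums. The share with at least 2 T lineage markers (87.0%) was 93.0% for 1 marker, 82.9% for 3 and 73.7% thinned to 200 UMIs. The number of clusters was 9 to 15. Of the named genes past 2-fold, Siglech reversed to -0.57 over the high-mitochondrial barcodes and Igkc to -0.48 over the labelled nuclei at a threshold of 10%. Without the hemoglobin cluster, Hba-a1, Hba-a2, Hbb-bs and Hbb-bt reversed to -4.04, -4.13, -3.97 and -4.01 over the high-mitochondrial barcodes, and Alas2, Hba-a1, Hba-a2, Hbb-bs and Hbb-bt to -2.29, -3.48, -3.62, -3.74 and -3.80 over the labelled nuclei. Here such barcodes were left out of 1 set only. Without barcodes over 50% hemoglobin in both sets, the values were -3.10, -3.01, -2.65 and -2.69 over the high-mitochondrial barcodes, and Alas2, Hba-a1 and Hba-a2 reversed to -1.16, -0.41 and -0.73 over the labelled nuclei. With the labelled nuclei counted in, 58 of 213 ratios of named genes changed sign. Of those past 2-fold as reported, Acer2, Arhgef28, Dipk2b, Dll4, Parvb, Pawr, Pparg and Stard8 reversed to 1.11, 1.39, 1.83, 1.56, 1.70, 1.19, 0.81 and 0.86. The cause of the reversals was not tested. Beside these, ratios of named genes left their counting interval in 110 of 213 cases with the labelled nuclei counted in (76 with the same sign), 86 of 213 against high-mitochondrial barcodes with at least 500 UMIs (73), 96 of 387 at 10% (86) and 29 to 36 under the 3 other scalings (28 to 35). The high-mitochondrial barcodes have a median of 94 nuclear-encoded UMIs, which limits every share given for them.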
